A study of Mus musculus with 12 samples.

Results

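Lungs labelled as S1pr1 knockout were compared with lungs labelled as C3 knockout, over all genes of the deposited count table. The comparison took 8 of the 12 libraries of the series, 4 labelled S1pr1_KO and 4 labelled C3_KO, chosen by their genotype labels alone. All mice carried MMTV-PyMT, a transgene that expresses the polyoma middle T oncogene in mammary epithelium from the promoter of mouse mammary tumour virus, and are labelled as lung metastasis at 4.5 months. Per the series' design, the S1pr1 KO mice were MMTV-Cre with S1pr1fl/fl, the C3 KO mice were MMTV-Cre with C3Tdt, and the 4 WT mice, used here only as a reference level, were MMTV-Cre without either allele. Cre was thus driven in all 3 groups by the mouse mammary tumour virus promoter. Which cells of the lung and blood it reached was not measured, and cells outside its reach could keep an intact gene. The labels do not state that each library stems from its own animal, and p-values therefore measure only the spread between these samples, which may be technical.

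S1pr1 is a receptor for sphingosine-1-phosphate, the blood lipid that lymphocytes follow out of lymphoid organs, and it also holds endothelial junctions together. C3 is the central protein of complement, the plasma cascade whose cleavage products coat targets and attract and activate myeloid cells. Both act on the traffic of blood cells into and out of the lung, a frequent site of metastasis of mammary tumours.

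Levels below are CPM, the usual depth-scaled read counts, over the TMM-scaled library total, listed in each group in the order of deposition. Fold changes are log2 values, S1pr1 KO minus C3 KO, with their standard error (SE), and adjusted p-values are those of edgeR's quasi-likelihood test after Benjamini-Hochberg adjustment over all genes tested. Total counts lay between 32274797 and 53063470. All 8 libraries held the defining transcripts of lung, with Sftpc of alveolar type 2 cells between 9448 and 12830 CPM and Scgb1a1 of club cells between 12580 and 24030 CPM. The correlation of log2 CPM was 0.979 to 0.988 within S1pr1 KO, 0.970 to 0.986 within C3 KO and 0.968 to 0.986 between the groups. Xist was at 232 CPM in S1pr1 KO 3 and between 626 and 753 CPM in the other 7 knockout libraries.

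The targeted genes did not separate the groups. In C3 KO the gene C3 (ENSMUSG00000024164, on chromosome 17, bases 57510970 to 57535136) had levels of 475, 465, 601 and 1416 CPM, and in S1pr1 KO it had levels of 772, 940, 851 and 713 CPM. The library labelled C3 KO 4 thus held more C3 than any other library, whereas C3 KO 1 to 3 lay below every S1pr1 KO library. S1pr1 (ENSMUSG00000045092, on chromosome 3, bases 115504082 to 115508721) had levels of 353, 256, 310 and 283 CPM in C3 KO and of 132, 366, 142 and 154 CPM in S1pr1 KO. The library labelled S1pr1 KO 2 lay above every C3 KO library, and S1pr1 KO 1, 3 and 4 lay below them all. The log2 difference was 0.15 for C3 (SE 0.30, edgeR adjusted p = 0.883) and -0.60 for S1pr1 (SE 0.29, edgeR adjusted p = 0.444). For C3 the value was 0.67 when the library labelled C3 KO 4 was left out, and -0.022 or -0.029 when C3 KO 1 or C3 KO 2 was. For S1pr1 it was -1.08 when the library labelled S1pr1 KO 2 was left out. In WT, C3 lay between 787 and 1025 CPM and S1pr1 between 295 and 491 CPM. For C3, C3 KO 1 to 3 lay below every WT library and the library labelled C3 KO 4 above them all. For S1pr1, S1pr1 KO 1, 3 and 4 lay below every WT library and the library labelled S1pr1 KO 2 within the WT range. Every direction below rests on the labels of the knockout libraries as given.

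**Figure D1:**
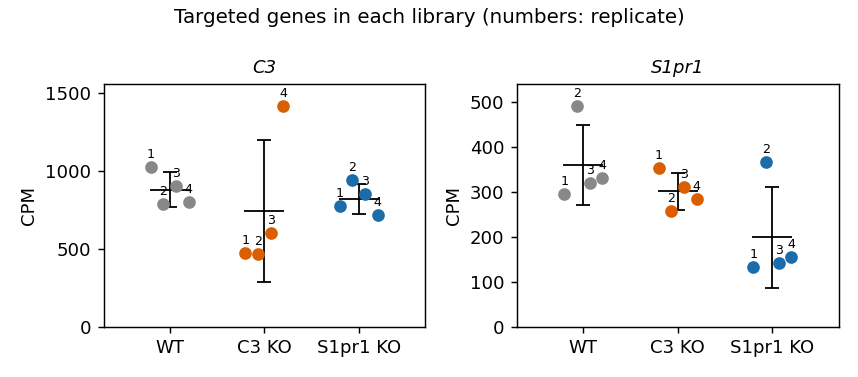
CPM of C3 and S1pr1 in each of the 12 libraries, by genotype label; points are libraries with their replicate number, and horizontal and vertical bars are the mean and SD of the 4 libraries of a group. C3 is highest in the library labelled C3 KO 4 (1416 CPM), and S1pr1 of the library labelled S1pr1 KO 2 (366 CPM) lies above all C3 KO libraries.

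Of 20229 genes tested, 0 (0%) passed edgeR's adjusted threshold of 0.05, and the lowest adjusted p was 0.0582, shared by 12 genes. Before adjustment 2437 genes (12%) had a p under 0.05, with 1332 (6.58%) higher and 1105 (5.46%) lower in S1pr1 KO. DESeq2 on the same counts called 317 genes (1.57%), 163 higher (0.806%) and 154 lower (0.761%), and limma voom with sample quality weights called 36 (0.178%). Without C3 KO 1 edgeR called 13 genes, without the library labelled C3 KO 4 it called 12, without S1pr1 KO 3 it called 8, without C3 KO 3 it called 4, and without the library labelled S1pr1 KO 2 it called 1. All 4 S1pr1 KO libraries lay above all 4 C3 KO libraries for 719 genes (3.55%) and below them for 575 genes (2.84%). These shares are the background against which each gene list below is read, beside a median log2 difference of 0.003 over all genes tested. The 20 genes with an edgeR adjusted p below 0.10 were 10 higher and 10 lower in S1pr1 KO. They held 13 protein coding genes, 1 T cell receptor constant gene, 4 pseudogenes and 2 long non-coding RNAs. The plot of all genes shows the 14 that are protein coding or receptor genes against the rest.

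**Figure D2:**
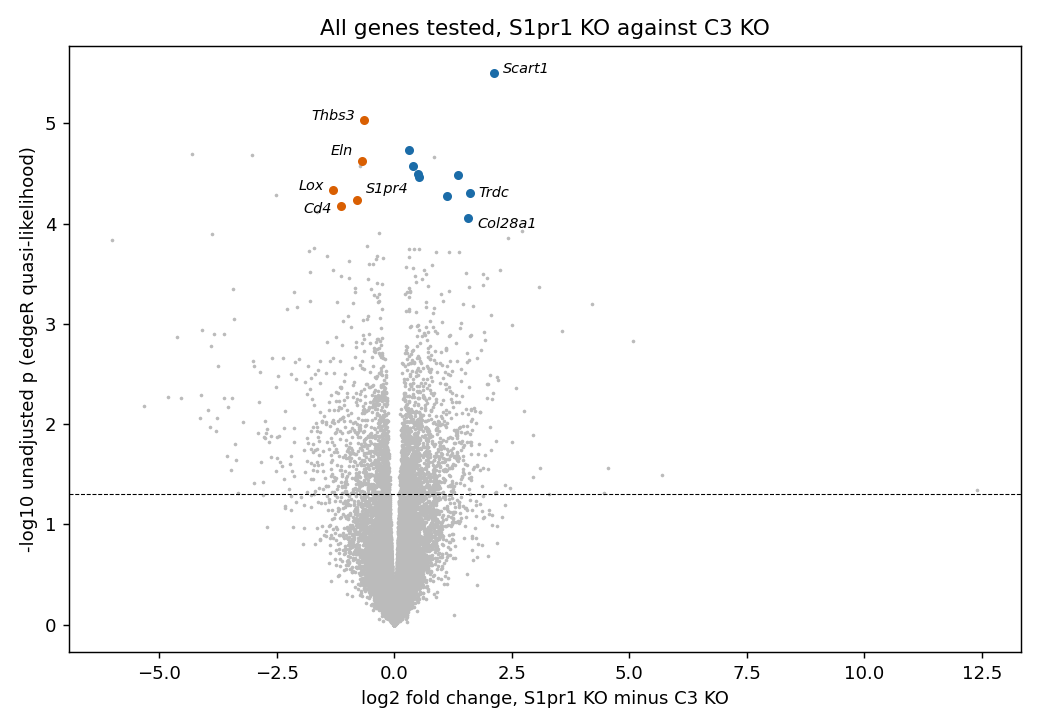
Log2 fold change (S1pr1 KO minus C3 KO, horizontal) against -log10 of the unadjusted edgeR p (vertical) for the 20229 genes tested; coloured points are the 14 protein coding or T cell receptor genes with an adjusted p below 0.10, and the dashed line marks an unadjusted p of 0.05. Scart1 stands highest, at a log2 value of 2.11.

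All genes tested of natural killer (NK) and cytotoxic cells, and 8 of 10 genes of gamma delta T cells, both innate-like lymphocytes of the lung, were at higher levels by value in S1pr1 KO. Scart1, a scavenger receptor family member of gamma delta T cells (ENSMUSG00000025461, chromosome 7, bases 139798180 to 139811058), was at 4.77, 3.75, 2.03 and 3.71 CPM in C3 KO and at 14.1, 21.6, 10.6 and 15.4 CPM in S1pr1 KO. Every S1pr1 KO library thus lay well above the highest C3 KO library, and the log2 difference of 2.11 (SE 0.27) had an edgeR adjusted p of 0.0582. Trdc, the constant region of the delta chain of the T cell receptor (chromosome 14, bases 54380308 to 54386325), was at 1.62, 1.61, 1.03 and 0.793 CPM in C3 KO and at 3.71, 4.45, 2.71 and 4.45 CPM in S1pr1 KO. These groups did not overlap either, with a log2 difference of 1.60 (SE 0.26, edgeR adjusted p = 0.0665). Trgc1, the constant region of a gamma chain, lay between 0.972 and 1.42 CPM in C3 KO and between 1.73 and 2.61 CPM in S1pr1 KO. Its log2 difference was 0.86 (SE 0.22, edgeR adjusted p = 0.210). Of the 10 gamma delta T cell genes tested, 8 were higher by value, 3 with an unadjusted p under 0.05, and Blk, a kinase that B cells also express, was lower with such a p (log2 difference -0.89, SE 0.35, edgeR adjusted p = 0.345). DESeq2 called 3 of the 10 higher and limma voom 1. The list's median of 0.21 was 0.13 without the library labelled S1pr1 KO 2 and 0.37 without the library labelled C3 KO 4. Scart1 passed in edgeR without C3 KO 1, C3 KO 3, the library labelled C3 KO 4 or S1pr1 KO 3, each left out in turn, with log2 values of 1.91 to 2.28.

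All 21 NK and cytotoxic genes tested were higher by value in S1pr1 KO, 14 with an unadjusted p under 0.05, and for 16 the groups did not overlap. The median log2 difference was 0.86, and DESeq2 called 5 of the 21 higher and limma voom 1. Klra8, an activating Ly49 receptor, was at 1.97, 3.37, 2.53 and 0.742 CPM in C3 KO and at 8.56, 6.63, 4.89 and 7.10 CPM in S1pr1 KO, a log2 difference of 1.66 (SE 0.37, edgeR adjusted p = 0.146). Klra9, another Ly49 receptor, lay between 0.614 and 2.17 CPM in C3 KO and between 3.81 and 4.04 CPM in S1pr1 KO. The Ly49 genes are a family of near-identical copies, so that reads may have been split between them and these values are uncertain. Klrc2, an NKG2 receptor chain, differed by 1.64 (SE 0.40, edgeR adjusted p = 0.189). Klrk1, the NKG2D receptor, was at 5.15, 5.30, 6.91 and 2.46 CPM in C3 KO and at 10.6, 12.3, 8.50 and 10.98 CPM in S1pr1 KO. Styk1, a receptor-like kinase of NK cells that is not one of the 21 genes, was at 1.16, 1.32, 0.805 and 0.921 CPM against 2.44, 2.31, 2.26 and 2.08 CPM. Its log2 difference was 1.11 (SE 0.19, edgeR adjusted p = 0.0665). Among the 21 genes the lowest edgeR adjusted p was 0.142. The library labelled C3 KO 4 was lowest of the C3 KO libraries for Klra8, Klra9, Klrc2 and Klrk1. Its list score, the mean log2 CPM of the members, was 0.729 against 1.75, 2.10 and 2.17 in C3 KO 1 to 3. S1pr1 KO scores lay between 2.52 and 2.78. Without the libraries labelled S1pr1 KO 2 and C3 KO 4 the median was 0.61, with 20 genes higher and 1 lower.

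Genes of conventional T cells lay the other way. Of 23 T cell genes tested, 22 were lower by value in S1pr1 KO, 19 with an unadjusted p under 0.05, and for 7 all S1pr1 KO libraries lay below all C3 KO libraries. Their median log2 difference was -0.84, and DESeq2 called 9 of the 23 lower and limma voom 0. Cd4, the co-receptor of helper T cells (chromosome 6, bases 124841655 to 124865184), was at 5.93, 7.41, 7.75 and 9.75 CPM in C3 KO and at 3.58, 3.35, 4.06 and 3.12 CPM in S1pr1 KO. The log2 difference was -1.13 (SE 0.19, edgeR adjusted p = 0.0752), with no overlap. Cd6, a receptor at the T cell synapse, was at 3.93, 6.85, 5.91 and 3.97 CPM against 1.46, 1.02, 2.60 and 0.742 CPM, a log2 difference of -1.82 (SE 0.35, edgeR adjusted p = 0.115). Trbc2, a constant region of the T cell receptor beta chain, differed by -1.10 (SE 0.25, edgeR adjusted p = 0.172). Cd3d, a chain of the CD3 complex, differed by -1.25 (SE 0.30, edgeR adjusted p = 0.193). S1pr1 KO 3 held the highest level of Cd4, Cd6, Trbc2 and Cd3d among the S1pr1 KO libraries, and without it Cd6 passed in edgeR at -2.25. In bulk tissue, fewer cells of a type and less RNA per cell cannot be told apart, here and in every list that follows. Without the libraries labelled S1pr1 KO 2 and C3 KO 4 the T cell median was -0.92.

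Of 10 genes of naive lymphocyte homing, a list that holds S1pr1 itself, 8 were lower, 5 with an unadjusted p under 0.05, with a median of -0.66. Ccr7, the chemokine receptor that leads naive lymphocytes into lymph nodes, was at 13.2, 11.4, 16.1 and 12.2 CPM in C3 KO and at 6.99, 3.88, 9.77 and 3.38 CPM in S1pr1 KO. Its groups did not overlap, and the log2 difference was -1.13 (SE 0.32, edgeR adjusted p = 0.250). Il7r, the survival receptor of naive T cells, was at 15.04, 17.0, 20.4 and 11.1 CPM against 8.94, 7.63, 13.1 and 6.35 CPM, with an overlap through S1pr1 KO 3 and the library labelled C3 KO 4. Among 12 regulatory T cell and checkpoint genes 11 were lower, 3 of them with an unadjusted p under 0.05. Icos, a costimulatory receptor, lay between 2.75 and 5.37 CPM in C3 KO and between 1.28 and 1.93 CPM in S1pr1 KO. Foxp3, the transcription factor of regulatory T cells, was at 0.868, 0.937, 1.499 and 4.45 CPM in C3 KO and at 0.549, 0.621, 0.637 and 0.356 CPM in S1pr1 KO. Ctla4, an inhibitory checkpoint receptor, was at 1.01, 0.966, 0.611 and 8.60 CPM against 0.606, 0.447, 0.398 and 0.0297 CPM. The library labelled C3 KO 4 was highest of its group for all 3 genes. Without it the log2 difference moved from -1.84 to -1.02 for Foxp3 and from -2.87 to -1.18 for Ctla4, and without it and the library labelled S1pr1 KO 2 the list's median was 0.02, with 7 genes higher.

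Of 20 B cell genes, 18 were lower in S1pr1 KO, 15 with an unadjusted p under 0.05, and the median was -1.19, yet for 0 of them did the groups stay apart. DESeq2 called 0 of the 20 and limma voom 0. Fcmr, the receptor for IgM, was at 15.3, 16.5, 16.9 and 4.84 CPM in C3 KO and at 2.50, 1.99, 8.69 and 2.38 CPM in S1pr1 KO. The library labelled C3 KO 4 and S1pr1 KO 3 crossed over: each stood apart from its own group, toward the other. Cd79b, a signalling chain of the B cell receptor, was at 29.0, 29.3, 29.8 and 11.3 CPM against 8.88, 7.75, 19.5 and 7.12 CPM. Log2 differences were -1.79 for Fcmr and -1.20 for Cd79b, with edgeR adjusted p-values of 0.256 and 0.275. Without the libraries labelled S1pr1 KO 2 and C3 KO 4 the median was -1.32. MHC class II genes include H2-Oa and H2-Ob, the chains of the DO protein of B cells that tempers peptide loading. H2-Oa was at 4.34, 5.18, 3.92 and 3.53 CPM in C3 KO and at 2.14, 2.41, 3.03 and 1.93 CPM in S1pr1 KO, a log2 difference of -0.83 (SE 0.18, edgeR adjusted p = 0.129) with no overlap. H2-Ob, at 35.1, 36.7, 35.2 and 14.3 CPM against 11.6, 8.42, 28.0 and 13.2 CPM, followed the same libraries as Fcmr. In all 9 of 11 class II genes were lower, 3 with an unadjusted p under 0.05, and the median of -0.04 was 0.04 without the library labelled C3 KO 4.

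**Figure D3:**
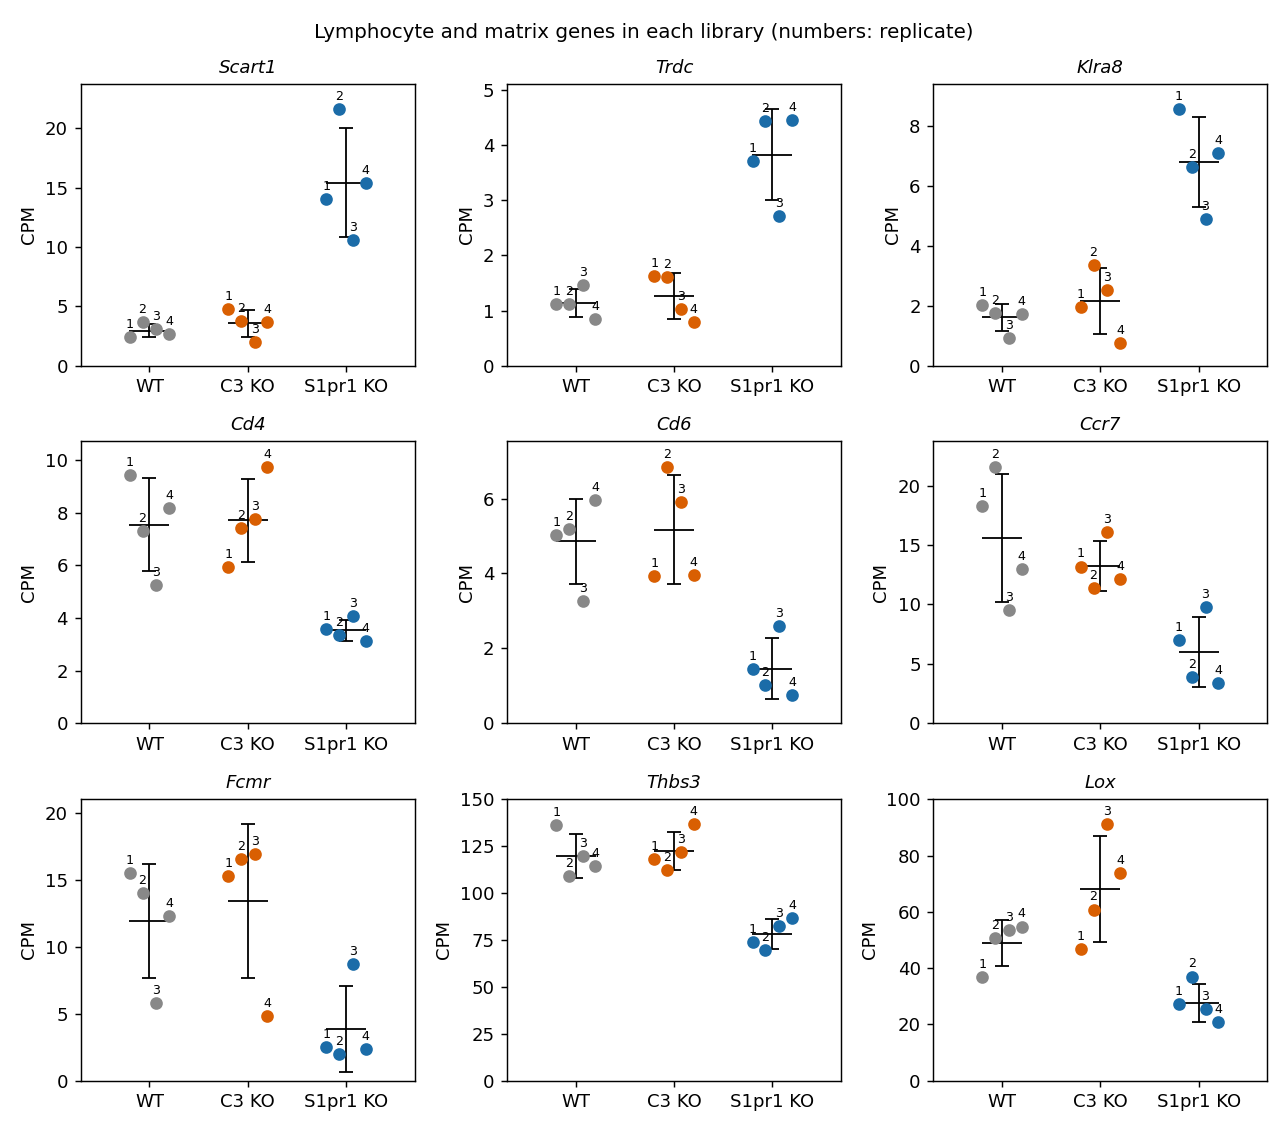
CPM of 7 lymphocyte genes and 2 matrix genes in each of the 12 libraries; points are libraries with their replicate number, and bars are the mean and SD of 4 libraries. Scart1, Trdc and Klra8 lie higher in all 4 S1pr1 KO libraries than in any C3 KO library, and Cd4, Cd6, Ccr7, Thbs3 and Lox lie lower; for Fcmr the library labelled C3 KO 4 (4.84 CPM) and S1pr1 KO 3 (8.69 CPM) cross.

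The matrix genes as a list had no common direction, and 3 of them, Eln, Lox and Thbs3, were among the genes of lowest p on the lower side. Eln, which encodes elastin, the protein that lets airspaces recoil (chromosome 5, bases 134731447 to 134776177), was at 219, 247, 243 and 210 CPM in C3 KO and at 122, 156, 161 and 134 CPM in S1pr1 KO. No S1pr1 KO library reached the lowest C3 KO library, and the log2 difference was -0.68 (SE 0.10, edgeR adjusted p = 0.0582). Lox, the lysyl oxidase that crosslinks elastin and collagen (chromosome 18, bases 52649139 to 52662939), was at 46.9, 60.8, 91.1 and 73.9 CPM against 27.2, 37.0, 25.4 and 20.7 CPM. It differed by -1.30 (SE 0.21, edgeR adjusted p = 0.0665). Against WT, Eln differed by 0.57 in C3 KO and by -0.11 in S1pr1 KO, and Lox by 0.48 and -0.83, comparisons that share the WT libraries. Thbs3, a thrombospondin that binds matrix and calcium (chromosome 3, bases 89122487 to 89134144), was at 118, 112, 122 and 136 CPM in C3 KO and at 73.7, 69.4, 82.3 and 86.5 CPM in S1pr1 KO, a log2 difference of -0.65 (SE 0.090, edgeR adjusted p = 0.0582). Its WT level of 109 to 136 CPM lay with C3 KO. Col4a3 and Col4a4, chains of the basement membrane collagen of alveoli, differed by -0.31 (SE 0.071, edgeR adjusted p = 0.166) and -0.36 (SE 0.075, edgeR adjusted p = 0.129), in both cases with no overlap.

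Other matrix genes stood higher. Col28a1, a collagen chain, was at 0.81, 1.43, 0.694 and 1.79 CPM in C3 KO and at 3.94, 3.58, 2.74 and 3.80 CPM in S1pr1 KO, a log2 difference of 1.57 (SE 0.27, edgeR adjusted p = 0.0878). Mmp23, a membrane-bound metalloproteinase, was at 9.78, 8.64, 10.5 and 10.1 CPM against 13.6, 13.5, 13.8 and 15.4 CPM, a log2 difference of 0.53 (SE 0.084, edgeR adjusted p = 0.0582). Neither gene's groups overlapped. Col14a1, a fibril-associated collagen, differed by 0.40 and Mfap5, a microfibril protein, by 0.35, with edgeR adjusted p-values of 0.210 and 0.180. Over the 30 collagen and elastic matrix genes, which do not include Col4a3, Col4a4, Col14a1, Col28a1 or Mmp23, 17 were higher and 13 lower, 4 in each direction with an unadjusted p under 0.05, and the median was 0.01. Without the library labelled C3 KO 4 that median was -0.07. Pdgfra, the growth factor receptor of lung fibroblasts, was at 378, 362, 408 and 375 CPM in C3 KO and at 288, 308, 290 and 295 CPM in S1pr1 KO, a log2 difference of -0.37 (SE 0.071, edgeR adjusted p = 0.117). The 16 fibroblast genes had a median of 0.02, or -0.06 without S1pr1 KO 1, with 9 higher and 7 lower.

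Ciliated cell genes were slightly higher in S1pr1 KO. Motile cilia sweep mucus along the airway, and their genes are switched on by FOXJ1 and by RFX factors, which bind the X-box motif. The 300 bases around the start of 3 ciliated genes, 250 before and 50 after it, are shown because these genes are among the 4 of lowest p in their list, with GTTGCC, an arm of the X-box, or its reverse complement GGCAAC in capitals. They are RefSeq sequences on GRCm38.p6, on the plus strand, whereas gene positions elsewhere in the text are on GRCm39. The windows are chr9:44240427-44240726 for Ccdc153, chr8:95533850-95534149 for Ccdc113 and chr12:105705732-105706031 for Ak7.
Ccdc153: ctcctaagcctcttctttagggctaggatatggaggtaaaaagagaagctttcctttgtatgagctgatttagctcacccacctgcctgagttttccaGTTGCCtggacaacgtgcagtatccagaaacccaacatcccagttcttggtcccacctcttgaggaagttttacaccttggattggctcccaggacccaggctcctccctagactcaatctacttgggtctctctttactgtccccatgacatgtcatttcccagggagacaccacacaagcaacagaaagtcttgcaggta
Ccdc113: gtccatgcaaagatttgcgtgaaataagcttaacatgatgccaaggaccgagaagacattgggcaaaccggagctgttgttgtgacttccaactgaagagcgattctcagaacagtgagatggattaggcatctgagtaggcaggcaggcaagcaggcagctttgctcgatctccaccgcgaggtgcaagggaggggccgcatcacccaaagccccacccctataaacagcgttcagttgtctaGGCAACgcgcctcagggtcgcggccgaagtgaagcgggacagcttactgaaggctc
Ak7: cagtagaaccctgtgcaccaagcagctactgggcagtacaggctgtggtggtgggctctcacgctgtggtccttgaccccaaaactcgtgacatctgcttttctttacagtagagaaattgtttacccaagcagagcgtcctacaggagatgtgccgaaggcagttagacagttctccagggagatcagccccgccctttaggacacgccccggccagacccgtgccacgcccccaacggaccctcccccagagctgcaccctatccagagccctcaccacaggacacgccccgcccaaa
The motif begins at position -152 from the start in Ccdc153 and at position -6 in Ccdc113, and the window of Ak7 does not hold it. Of the 28 listed ciliated genes 21 had a RefSeq promoter, and 11 of these (52.4%) held the motif on either strand, against 1724 of 13374 promoters of tested genes (12.9%) and 3423 of 27025 promoters in all (12.7%). Such a match describes letters and is not a bound site. The list was made of ciliated cell markers, so its share describes the list and not the difference between the knockouts.

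Ccdc153, a coiled-coil gene of motile cilia, was at 55.8, 49.6, 64.3 and 74.6 CPM in C3 KO and at 117, 89.2, 99.7 and 119 CPM in S1pr1 KO. The groups did not overlap, and the log2 difference was 0.80 (SE 0.16, edgeR adjusted p = 0.120). Ccdc113, a protein of the cilium base and axoneme, was at 12.6, 11.7, 9.66 and 13.3 CPM against 16.9, 12.6, 16.2 and 18.0 CPM, where the library labelled S1pr1 KO 2 lay within the C3 KO range. Ak7, an adenylate kinase of cilia, differed by 0.44 (SE 0.15, edgeR adjusted p = 0.309), and Rsph1, a radial spoke head protein, by 0.46 (SE 0.16, edgeR adjusted p = 0.303). For both, the library labelled S1pr1 KO 2 was lowest of its group and the library labelled C3 KO 4 highest of its own. Foxj1 itself was at 115, 90.8, 82.1 and 185 CPM in C3 KO and at 154, 147, 139 and 175 CPM in S1pr1 KO. The library labelled C3 KO 4 thus lay above every S1pr1 KO library for Foxj1. Of the 28 ciliated genes 27 were higher by value, 12 with an unadjusted p under 0.05, and for 3 the groups did not overlap. The median of 0.34 was 0.54 without the libraries labelled S1pr1 KO 2 and C3 KO 4, and all 28 were then higher. Club and secretory cell genes showed 19 of 22 higher, but only 2 higher and 1 lower with an unadjusted p under 0.05, and a median of 0.29, which was 0.15 without S1pr1 KO 4, 0.16 without C3 KO 3 and 0.44 without the library labelled C3 KO 4. Reg3g, an antimicrobial lectin of airway epithelium, was at 22.1, 10.6, 5.30 and 23.3 CPM in C3 KO and at 9.41, 44.4, 59.5 and 71.4 CPM in S1pr1 KO, so the groups overlapped through S1pr1 KO 1. The median of the 18 alveolar type 2 genes was -0.13 and that of the 16 alveolar type 1 genes -0.13, with 3 and 5 lower at an unadjusted p under 0.05. The type 2 median was -0.26 without the library labelled S1pr1 KO 2 and -0.014 without the library labelled C3 KO 4.

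Endothelial genes, from the cell type in which S1pr1 is most abundant in lung, did not set the groups apart. Of 18 pan-endothelial genes 12 were lower and 6 higher, with a median of -0.08, and 0 had an unadjusted p under 0.05. The 17 capillary genes had a median of -0.07, with 1 higher and 0 lower at that level. Pecam1, the endothelial adhesion molecule, was at 905, 1022, 954 and 729 CPM in C3 KO and at 879, 829, 913 and 873 CPM in S1pr1 KO. Without the libraries labelled S1pr1 KO 2 and C3 KO 4 the pan-endothelial median was -0.18, and 7 of the 18 genes were lower with an unadjusted p under 0.05.

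Among 35 genes of sphingosine-1-phosphate and sphingolipid handling, 23 were lower and 12 higher, 5 and 1 with an unadjusted p under 0.05, and the median was -0.07. S1pr4, the sphingosine-1-phosphate receptor of lymphocytes and other blood cells (chromosome 10, bases 81333581 to 81335966), was at 30.8, 33.2, 31.8 and 21.6 CPM in C3 KO and at 18.1, 17.6, 17.6 and 14.1 CPM in S1pr1 KO. No libraries overlapped, and the log2 difference was -0.80 (SE 0.13, edgeR adjusted p = 0.0693). It passed in edgeR without the library labelled C3 KO 4 at -0.93, and without both that library and the library labelled S1pr1 KO 2 at -0.95. Sphk1, the kinase that makes sphingosine-1-phosphate, was at 51.9, 45.4, 55.2 and 53.8 CPM against 40.5, 48.5, 33.4 and 34.5 CPM, where the library labelled S1pr1 KO 2 overlapped the C3 KO range. Spns1, a lysosomal lipid transporter, differed by -0.22 (SE 0.068, edgeR adjusted p = 0.265) and Asah2, a ceramidase, by 0.21 (SE 0.073, edgeR adjusted p = 0.301), both without overlap.

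The complement genes showed no common direction: 16 of 34 were higher and 18 lower, 2 in each direction with an unadjusted p under 0.05, and the median of -0.03 was -0.09 without the library labelled S1pr1 KO 2 and 0.03 without the library labelled C3 KO 4. Clu, a regulator that blocks the terminal complement complex, was at 210, 247, 259 and 276 CPM in C3 KO and at 278, 414, 307 and 381 CPM in S1pr1 KO, a log2 difference of 0.48 (SE 0.13, edgeR adjusted p = 0.227). Inflammasome and interleukin-1 genes were lower by value in 21 of 27 cases, 5 with an unadjusted p under 0.05, and the median of -0.17 was -0.10 without C3 KO 3. Il18, an inflammasome cytokine, was at 12.8, 9.89, 10.4 and 18.2 CPM against 10.2, 9.51, 8.95 and 7.51 CPM. Its log2 difference of -0.50 was -0.29 without the library labelled C3 KO 4.

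Heart muscle genes were higher in S1pr1 KO, to an extent that differed between its libraries. In mice, cardiac muscle also sheathes the pulmonary veins. Of 23 cardiomyocyte genes 22 were higher, 19 with an unadjusted p under 0.05, and 6 did not overlap, with a median of 1.23. Nppa, the atrial natriuretic peptide, was at 7.49, 1.29, 0.666 and 1.72 CPM in C3 KO and at 7.80, 329, 23.5 and 15.4 CPM in S1pr1 KO. Mybpc3, a sarcomere protein of the heart, was at 9.95, 5.53, 11.6 and 6.30 CPM against 9.30, 73.5, 28.5 and 21.5 CPM. Hamp, the iron hormone hepcidin, which heart muscle also makes and which had the lowest p of this list, was at 4.43, 2.14, 1.69 and 2.41 CPM against 7.21, 9.91, 7.22 and 6.29 CPM. Its groups did not overlap, and the log2 difference was 1.52 (SE 0.31, edgeR adjusted p = 0.124). The library labelled S1pr1 KO 2 was highest for Nppa, Mybpc3 and Hamp, and without it the list's median was 0.74. Skeletal muscle genes had 12 of 12 higher by value, 7 with an unadjusted p under 0.05. Their list score was 4.155 in the library labelled S1pr1 KO 2 and 4.263 in WT 2. It lay between 0.0317 and 1.04 in the other knockout libraries. Against WT the list's median was -0.19 in S1pr1 KO and -1.83 in C3 KO. Myh4, the myosin of fast muscle fibres, was at 0.347, 0, 0.0833 and 0.205 CPM against 0.530, 14.4, 0.106 and 0.0891 CPM, so 1 library set its log2 value of 4.54, which was 0.68 without it. The skeletal median moved from 1.56 to 0.65 without that library. The adipocyte list, with 14 of 16 higher and 5 with an unadjusted p under 0.05, had a median of 1.30, which was 0.18 without it. Retn, the adipocyte hormone resistin, was at 2.02, 1.61, 1.22 and 2.33 CPM in C3 KO and at 1.84, 15.6, 3.90 and 4.01 CPM in S1pr1 KO, and its log2 difference of 1.82 was 0.84 without the library labelled S1pr1 KO 2. The part of muscle and fat in other results of the library labelled S1pr1 KO 2 was not tested.

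Erythroid, neutrophil and alveolar macrophage genes were mostly lower by value in S1pr1 KO, and single C3 KO libraries set much of the distance. Of 17 erythroid genes 16 were lower, 13 with an unadjusted p under 0.05, and the median was -1.87. Hbb-bt, a beta globin with a near-identical neighbour that may share its reads, was at 483, 212, 4556 and 133 CPM in C3 KO and at 100, 156, 311 and 235 CPM in S1pr1 KO. Slc4a1, the anion exchanger of red cells, was at 18.0, 2.17, 130 and 0.947 CPM against 1.08, 1.12, 5.02 and 2.97 CPM. C3 KO 3 was far above the others for both, and without it the erythroid median was -0.36. Of 15 neutrophil genes 14 were lower, 2 with an unadjusted p under 0.05, and the median of -0.97 turned to 0.21 without C3 KO 3 and was -1.35 without the library labelled C3 KO 4. The neutrophil list score was 3.04, 3.59, 5.20 and 1.38 in C3 KO, so those libraries stood apart on either side, and 3.11, 2.30, 3.79 and 3.10 in S1pr1 KO. Mmp8, neutrophil collagenase, was at 4.45, 8.02, 33.2 and 2.33 CPM in C3 KO and at 4.20, 3.11, 6.43 and 3.74 CPM in S1pr1 KO.

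Among 16 alveolar macrophage genes, 15 were lower in S1pr1 KO, 6 with an unadjusted p under 0.05, and 1 was higher with such a p. Chil3, a chitinase-like protein of these macrophages, was at 250, 352, 506 and 1419 CPM in C3 KO and at 210, 272, 242 and 319 CPM in S1pr1 KO. Its log2 difference of -1.28 was -0.51 without the library labelled C3 KO 4. Marco, a scavenger receptor, followed the same library, with 59.0 CPM there and 17.2 to 28.2 CPM in the other C3 KO libraries, against 14.9 to 18.7 CPM in S1pr1 KO. Siglecf, a sialic acid receptor, lay between 13.9 and 20.5 CPM in C3 KO and between 9.69 and 13.0 CPM in S1pr1 KO, with no overlap (log2 difference -0.54, SE 0.20, edgeR adjusted p = 0.314). The list's median of -0.26 was -0.14 without the library labelled C3 KO 4. Ccl6, a chemokine of macrophages and other myeloid cells, was at 181, 154, 204 and 299 CPM in C3 KO and at 134, 129, 114 and 129 CPM in S1pr1 KO, a log2 difference of -0.73 (SE 0.19, edgeR adjusted p = 0.220). Of the 16 monocyte and interstitial macrophage genes 0 had an unadjusted p under 0.05, and the median of -0.08 was -0.18 without C3 KO 1.

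**Figure D4:**
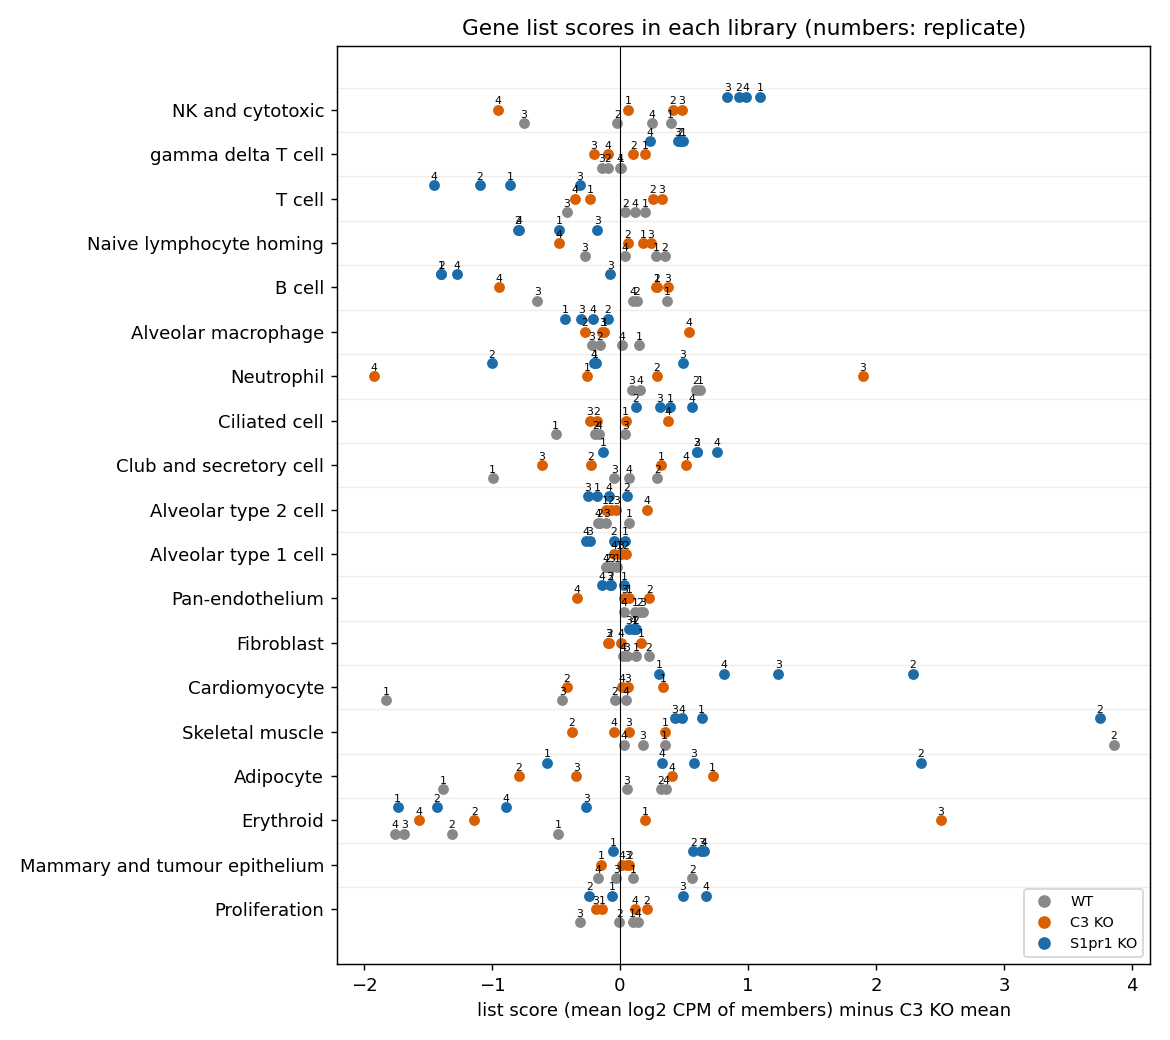
List score (mean log2 CPM of a list's tested genes) of each library minus the mean of the 4 C3 KO libraries, for 19 gene lists; points are libraries with their replicate number, coloured by genotype label. All S1pr1 KO libraries lie above all C3 KO libraries for the NK and cytotoxic and the gamma delta T cell lists. C3 KO 3 stands high in the erythroid and neutrophil lists, and C3 KO 4 stands low in the neutrophil list. S1pr1 KO 2 stands high in the cardiomyocyte, skeletal muscle and adipocyte lists.

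Genes of mammary and tumour epithelium were higher by value in 19 of 25 cases, 5 with an unadjusted p under 0.05, with a median of 0.17. The keratin genes Krt8, Krt18 and Krt19 are also in the list of mesothelium, the outer lining of the lung. The list thus does not mark metastatic cells alone. Its score was 3.70 in S1pr1 KO 1, within the C3 KO range of 3.61 to 3.82, and 4.32 to 4.41 in S1pr1 KO 2 to 4. WT scores lay between 3.58 and 4.32. Esr1, the oestrogen receptor, was at 2.55, 2.28, 2.44 and 2.84 CPM in C3 KO and at 3.48, 4.67, 4.04 and 3.86 CPM in S1pr1 KO, a log2 difference of 0.66 (SE 0.14, edgeR adjusted p = 0.124). Cldn4, a tight junction protein of secretory epithelium, was at 5.32, 4.33, 4.08 and 4.45 CPM against 6.65, 8.20, 5.84 and 8.88 CPM. Neither gene's groups overlapped, and both are also expressed by other cells of the lung. Csn3, a milk casein, was at 0.174, 3.75, 2.11 and 0.102 CPM against 0.89, 1.86, 18.96 and 25.4 CPM, so S1pr1 KO 3 and 4 carried its higher mean. Of 30 proliferation genes 27 were higher, 4 with an unadjusted p under 0.05, and the median was 0.23. Pcna, the replication clamp, differed by 0.20 (SE 0.065, edgeR adjusted p = 0.289) with no overlap. Without S1pr1 KO 4 the proliferation median was 0.09, without S1pr1 KO 3 it was 0.14, and without the libraries labelled S1pr1 KO 2 and C3 KO 4 it was 0.39 with all 30 higher.

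Several genes of lowest p belonged to none of the gene lists. Hmgb1, a chromatin protein that acts as an alarm signal outside cells, was at 77.0, 80.1, 84.8 and 74.8 CPM in C3 KO and at 104, 103, 107 and 102 CPM in S1pr1 KO, a log2 difference of 0.39 (SE 0.061, edgeR adjusted p = 0.0582). Rbm3, an RNA-binding protein induced by cold, was at 98.0, 95.6, 97.5 and 91.8 CPM against 147, 127, 146 and 126 CPM, a difference of 0.51 (SE 0.081) with the same adjusted p. WT libraries, at 110 to 145 CPM, lay above C3 KO for Rbm3. Nipsnap2, a mitochondrial protein, was at 67.6, 62.7, 64.3 and 64.8 CPM against 79.4, 83.6, 79.5 and 79.9 CPM. It differed by 0.31 (SE 0.047, edgeR adjusted p = 0.0582). Nxpe3, at 26.4 to 35.1 CPM in C3 KO and 16.2 to 21.1 CPM in S1pr1 KO, differed by -0.58 (SE 0.11, edgeR adjusted p = 0.115).

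In another set of genes the libraries of a group lay far apart, some of them at the level of the other group. Tpm3-rs7, a copy of a tropomyosin gene, was at 30.2, 28.7, 30.6 and 28.6 CPM in C3 KO and at 245, 238, 31.6 and 120 CPM in S1pr1 KO. Selenbp2, a selenium-binding protein with a close paralogue (chromosome 3, bases 94600863 to 94611720), was at 1.79, 1.43, 2.39 and 2.79 CPM against 20.5, 19.9, 2.52 and 12.4 CPM. In both, S1pr1 KO 3 stood at the C3 KO level and S1pr1 KO 4 between. Without S1pr1 KO 3 both passed in edgeR, at 2.77 for Tpm3-rs7 and 3.06 for Selenbp2. Gbp2b, an interferon-induced guanylate binding protein (chromosome 3, bases 142300608 to 142324940), was at 0.347, 26.9, 0.528 and 17.5 CPM in C3 KO and at 0.549, 0.248, 0.478 and 0.534 CPM in S1pr1 KO, against 15.6 to 28.0 CPM in WT. Arsj, an arylsulfatase (chromosome 3, bases 126157333 to 126234024), was at 1.91, 6.67, 8.11 and 5.94 CPM in C3 KO and at 1.61, 1.54, 2.05 and 1.69 CPM in S1pr1 KO, so C3 KO 1 lay with S1pr1 KO. It passed in edgeR without C3 KO 1, at -2.01. Gm9008 was at 1.65, 1.76, 0 and 2.02 CPM against 0.0379, 0.0248, 0 and 0 CPM, where C3 KO 3 lay with S1pr1 KO, and it passed without C3 KO 3. Orm2, an acute phase protein with close paralogues, was at 2.49, 0.205, 2.89 and 0.461 CPM against 0.284, 0.124, 0.372 and 0.297 CPM. Reads of the genes with close copies may have been split, so their levels are uncertain.

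**Figure D5:**
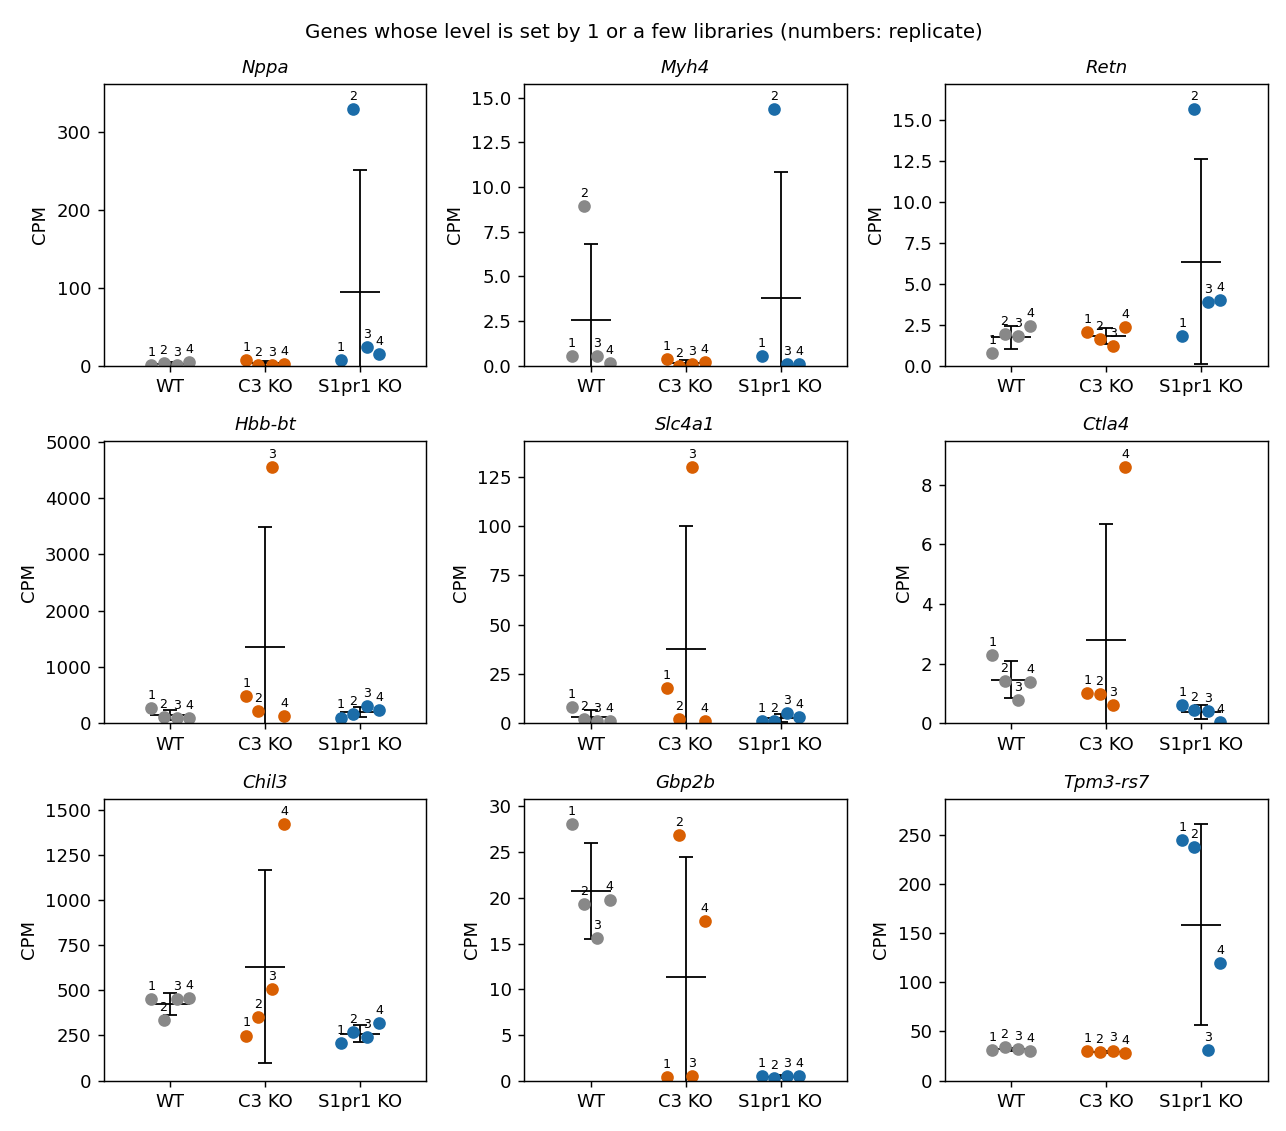
CPM of 9 genes in each of the 12 libraries, with replicate numbers; bars are the mean and SD of 4 libraries, cut at 0. S1pr1 KO 2 stands apart for Nppa, Myh4 and Retn, C3 KO 3 for Hbb-bt and Slc4a1 and C3 KO 4 for Ctla4 and Chil3, whereas Gbp2b is high in 2 of 4 C3 KO libraries and Tpm3-rs7 is high in 2, intermediate in 1 and low in 1 of the S1pr1 KO libraries.

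The groups differ by the engineered locus, so genes near each locus were counted apart. Within 10 Mb of S1pr1 on chromosome 3, 31 of 156 genes tested (19.9%) had an unadjusted p under 0.05, and within 30 Mb 101 of 639 (15.8%), against 12% of all genes. Within 10 Mb of C3 on chromosome 17 the count was 15 of 149 (10.1%), and within 30 Mb 71 of 674 (10.5%). By nuclear chromosome the share ran from 9.62% on chromosome 2 to 15.7% on chromosomes 3 and 6. Counted in either direction, the groups did not overlap for 11 genes (7.05%) within 10 Mb of S1pr1 and for 7 (4.70%) within 10 Mb of C3. Over all 20229 genes tested they did not overlap for 1294, with S1pr1 KO above for 719 (3.55%) and below for 575 (2.84%). By nuclear chromosome that share ran from 4.88% on chromosome 4 to 8.73% on chromosome 9. Thbs3, Selenbp2, Arsj and Gbp2b all lie within 30 Mb of S1pr1.

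The WT libraries gave a reference level. Of the 20 genes with an adjusted p below 0.10 the WT mean was nearer to C3 KO on the log2 scale in 15 and nearer to S1pr1 KO in 5. Eln, Rbm3 and Mmp23 were among the latter. Of the 1294 genes whose knockout groups did not overlap, the WT mean was nearer to C3 KO for 849 (65.6%). These genes were chosen by the difference between the knockouts, so the shares are a description. For Scart1 the WT libraries lay between 2.39 and 3.68 CPM, and for Cd4 between 5.24 and 9.45 CPM, with the C3 KO libraries in both cases.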

How the data were processed

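Whole-lung RNA was extracted with QIAzol from tissue kept in RNAlater and sequenced by a commercial provider, per the labels' protocols. The submitters' processing notes name CASAVA, STAR, GRCm39 and mm39 without versions. How reads were counted, and whether by strand, is not given in the sources used here, and overlapping, antisense or near-identical genes may share reads. The deposited table holds whole-number read counts of 56748 genes in 12 libraries, and the deposited FPKM values were used in 1 alternative with a pseudocount of 1 or 0.1.

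The tests used edgeR 4.0.16 under R 4.3.3. After filterByExpr (20229 genes) and TMM scaling, group means of all 12 libraries were fitted by quasi-likelihood (9 residual degrees of freedom) with Benjamini-Hochberg adjustment. The SE is the absolute log2 value over the square root of the F statistic. The script was tested on simulated data. No 2 libraries of a knockout group were duplicates (chi-square over degrees of freedom 12.4 or more). Replicate numbers follow the order of deposition and pair nothing.

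Named genes were C3, S1pr1, the 10 protein coding genes of lowest p in each direction, and up to 4 members of lowest p per list. Pecam1, Xist, Sftpc, Scgb1a1, Foxj1 and Fos were added as marker genes. The 45 lists (860 symbols, 5 not in the table) and the genes were chosen with earlier results of these data known, and the text uses only part of them (some are not reported here), so list counts carry no test. Alternatives were DESeq2 1.42.0, limma 3.58.1 (voom, FPKM), other scalings and filters, a robust fit, a fold threshold of 1.5, the 8 knockout libraries alone, and each library left out. Leaving out the libraries labelled S1pr1 KO 2 and C3 KO 4 together was chosen after seeing the data.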

Additional observations from a re-analysis of the deposited data

Results flagged for a closer look

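For 28 of 200 pairs of gene and knockout group, 1 library lay so far from the other 3 that its gap exceeded Dixon's 95% critical value for 4 samples. Chance flags about 1 in 20 groups, and genes of one cell type are not independent. In the library labelled C3 KO 4, C3 (1416 CPM), Icos (5.37 CPM), Ctla4 (8.60 CPM), Siglecf (20.5 CPM) and the acute phase gene Saa3 (17.2 CPM) stood above the other C3 KO libraries. In the same library the B cell genes Fcmr (4.84 CPM), Cd79b (11.3 CPM) and H2-Ob (14.3 CPM) stood below them. C3 KO 3 was apart on the high side for the erythroid genes Slc4a1 (130 CPM), Hbb-bt (4556 CPM) and Alas2 (866 CPM), for the decoy receptor Il1r2 (7.89 CPM), for Nxpe3 (35.1 CPM) and for the antiviral gene Rsad2 (100.4 CPM). Nppa was high in C3 KO 1 (7.49 CPM), and the potassium channel gene Kcnj5 was low in C3 KO 2 (1.64 CPM).

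The library labelled S1pr1 KO 2 was apart on the high side for 8 genes. These were S1pr1 (366 CPM), the muscle genes Nppa (329 CPM), Kcnj5 (16.8 CPM), Actn3 (5.12 CPM) and Myh4 (14.4 CPM), and Retn (15.6 CPM), Nipsnap2 (83.6 CPM) and the interferon-induced GTPase gene Tgtp1 (6.93 CPM). S1pr1 KO 3 was high for Fcmr (8.69 CPM) and Cd79b (19.5 CPM). Xist was not among the genes screened. It too stood apart in S1pr1 KO 3, at 232 CPM against 626 to 666 CPM in the other S1pr1 KO libraries, and the cause was not tested. S1pr4 was low in S1pr1 KO 4 (14.1 CPM), and the immediate early gene Fos was high in S1pr1 KO 1 (548 CPM).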

How the results depend on the processing

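No paired analysis was possible because the replicate numbers follow the order of deposition and the labels pair no libraries. The count of genes called, 0 in edgeR with TMM scaling, was 317 in DESeq2, 36 in limma voom with sample quality weights, 7 in limma on log2(FPKM + 1), 6 on log2(FPKM + 0.1), 15 with no filter on low counts, and 3 without the libraries labelled S1pr1 KO 2 and C3 KO 4. Leaving out each library in turn gave 0 to 13. It stayed at 0 with RLE or upper-quartile scaling, a robust fit, a fold threshold of 1.5, a minimum of 1 CPM in 4 libraries, and the 8 knockout libraries alone, where the lowest adjusted p was 0.187. Of 2287 single-gene values under an alternative, 2187 kept their direction and side of the threshold, 98 passed it, and 2 turned: C3 was -0.022 without C3 KO 1 and -0.029 without C3 KO 2, and up to 0.67 without the library labelled C3 KO 4. Of 1035 list medians under an alternative 13 moved by more than the SD of the list's scores. The neutrophil median turned to 0.21 without C3 KO 3. The dendritic cell median turned to 0.18 without both libraries in doubt. With 4 libraries a group, genes near 1 CPM rest on few reads, and the cause of the differences between tools was not tested.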

Other observations

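Clock genes and mitochondrially encoded genes were among the lists with more low p-values than the 12% of all genes. Of 17 circadian clock genes 13 were higher by value in S1pr1 KO, 4 with an unadjusted p under 0.05, and 2 were lower with such a p. Arntl, a core activator of the clock, was at 4.14, 4.65, 9.91 and 8.85 CPM in C3 KO and at 2.48, 3.21, 3.16 and 4.30 CPM in S1pr1 KO, a log2 difference of -1.07 (SE 0.30, edgeR adjusted p = 0.245). Per3, a repressor of the clock, was at 203, 148, 134 and 173 CPM against 227, 178, 215 and 227 CPM, a difference of 0.37 (SE 0.12, edgeR adjusted p = 0.289). Both genes' groups overlapped, and the labels give no hour of collection.

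Of 13 mitochondrially encoded genes 9 were higher, 6 with an unadjusted p under 0.05, 1 (mt-Atp6, at 8.29 to 14.9 CPM in C3 KO and 8.25 to 9.39 CPM in S1pr1 KO) was lower with such a p, and the groups overlapped for all 13. mt-Co1, a subunit of cytochrome oxidase, lay between 5378 and 6182 CPM in C3 KO and between 6054 and 7710 CPM in S1pr1 KO, a log2 difference of 0.24 (SE 0.082, edgeR adjusted p = 0.303). The level of mt-Atp6 lay far below that of mt-Co1. Reads of near-identical genes may be shared, so the level and direction of mt-Atp6 are uncertain, which was not tested. Class I histocompatibility genes were higher by value in 16 of 20 cases, with 1 in each direction at an unadjusted p under 0.05 and a median of 0.11. H2-K1, a classical class I gene, was at 1205, 1320, 1042 and 1239 CPM against 1424, 1338, 1413 and 1387 CPM, with no overlap and a log2 difference of 0.21 (SE 0.10, edgeR adjusted p = 0.442). Immediate early genes, which respond within minutes to handling, were lower by value in 18 of 26 cases, 1 with an unadjusted p under 0.05. Fos was at 434, 339, 121 and 576 CPM in C3 KO and at 548, 85.0, 74.1 and 59.3 CPM in S1pr1 KO, so it differed as much within the groups as between them.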
